A study of Drosophila montana with 23 samples.

Results

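Diapausing Drosophila montana females that had spent 150 days in the climate chamber and were overwintering (150D, 3 arrays) were set against diapausing females of 50 days in autumn conditions (50D, 3 arrays), 6 of the 23 arrays of the series. These arrays were chosen by their labels, and all 218 genes measured on the array were compared. Females of both groups came from the isofemale strain 175OJ8, were transferred into the chamber within a day of eclosion in the short days of late August, and were in the maintenance phase of reproductive diapause with undeveloped ovaries. The 150D females were collected in constant darkness and cold, and the 50D females while autumn still had daily cycles of light and temperature. Age, season, light and temperature thus changed together between the groups and cannot be told apart. Each array held RNA of 2 pooled whole females from a single strain, so that a change of RNA per cell and a change in the share of a tissue cannot be told apart either. The array was a custom one-colour design that covers candidate genes, and levels are given as log2 intensity, whose size differs between probes and was compared only between arrays.

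In reproductive diapause a female insect halts ovarian development, keeps her metabolism low, builds up fat and becomes more tolerant of cold. In Drosophila, diapause is induced by short days and low temperature soon after eclosion, and insulin signalling, lipid storage and membrane composition are among the processes tied to it. In the wild, northern flies pass the winter in this state on reserves laid down in autumn.

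Of the 218 genes, 15 were called (6.88%) at an adjusted p under 0.05 in limma with a change of 2-fold or more. The 5 genes called higher in 150D females (2.29%) were CG6785, Jon25Bi, Thor, Hsc70-2 and tutl. The 10 genes called lower (4.59%) were Adh, Arr2, regucalcin, desat1, Hsf, Gbeta76C, desat2, Cyt-b5-r, trp and CG9743. Of these 10, 7 belonged to fatty acid desaturation or to phototransduction, lists that hold 27 of all 218 genes (12.4%). These are the lists with the most genes called lower, and all lists were written with earlier results of these data known. The share is therefore a description and not a test. Another 2 genes, ey and Hsp68, passed the adjusted p with less than a 2-fold change, which made 17 (7.80%) without the minimum fold. The unadjusted p was under 0.05 for 32 genes. Every called gene had 150D arrays that did not overlap the 50D arrays, and the same direction on each of the 3 slides, but arrays of the groups were apart for 112 of all genes (51.4%), with 150D above in 65 (29.8%) and below in 47 (21.6%). Over all genes the median log2 difference was 0.14, and 132 genes had a positive and 86 a negative value.

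**Figure D1:**
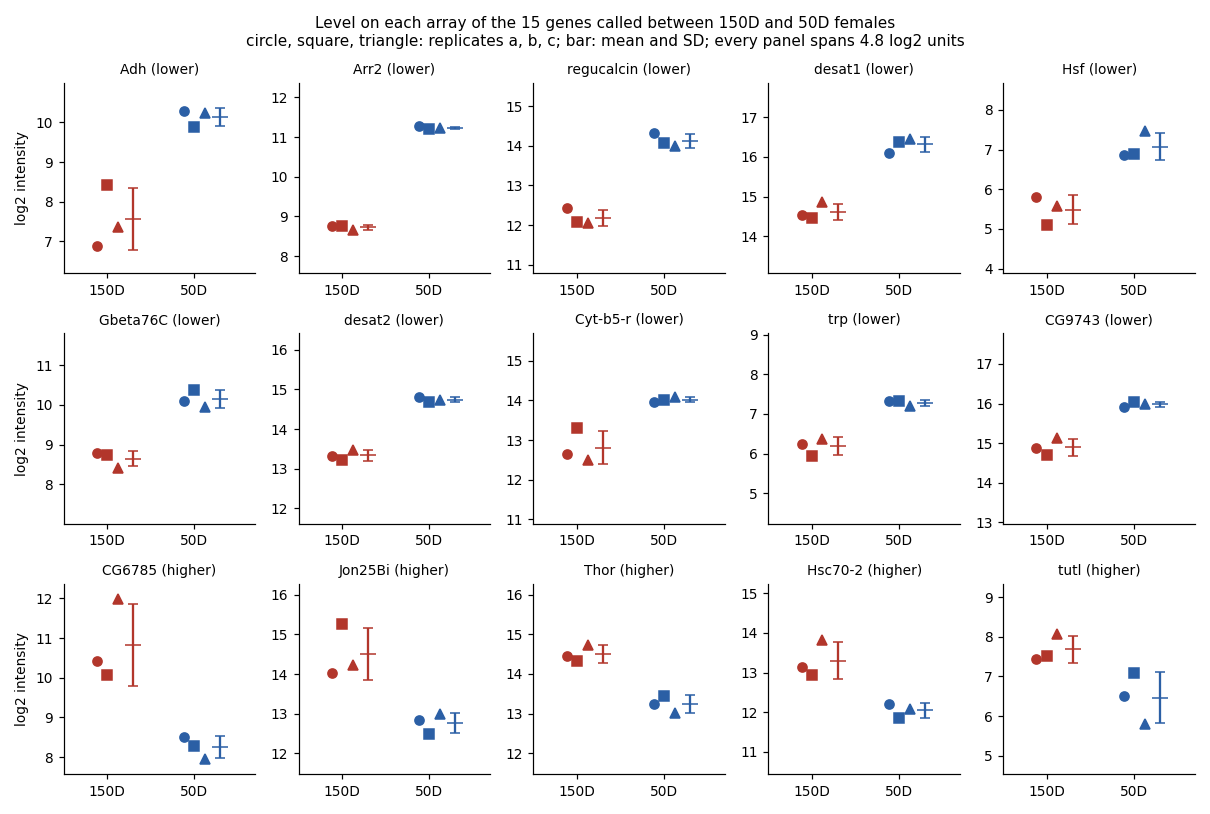
Log2 intensity of the 15 called genes on each array, 150D (red) left of 50D (blue), with symbols for replicates a, b and c and a bar for the mean and SD. In no panel do the groups overlap, and the 150D arrays are spread more widely than the 50D arrays for CG6785, where they reach from 10.06 to 11.99.

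The direction of these values is relative to the other genes on the array. With quantile normalization 5 of 15 calls were higher (33.3%). Scaled on the 75th percentile of each array, 1 gene was called higher and 6 lower (14.3% higher), with no normalization 1 higher and 16 lower (5.88%), and scaled on 7 spike-in probes none higher and 29 lower (limma, 62 genes at an unadjusted p under 0.05). The median log2 difference of all genes was 0.029, -0.29 and -0.73 under these scalings. All 10 genes called lower had a negative log2 difference under each of them. Of the 5 called higher, 4 kept a positive one, and Hsc70-2 had -0.019 on the spike-in scale.

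Of the 14800 gene spots, 71.4%, 90.1% and 73.4% were well above background on 150D replicates a, b and c, against 63.5% to 74.0% on the 50D arrays. The mean correlation of an array with the others of its group was 0.976 to 0.987 in 150D and 0.993 to 0.994 in 50D, lowest in 150D replicate b. Without that array 3 genes were called higher (CG6785, Thor and Hsc70-2) and 6 lower (Arr2, Adh, desat1, regucalcin, desat2 and Cyt-b5-r). For 121 of the 218 genes, and for 12 of the 15 called, the SD was larger in 150D than in 50D. The 3 slides each held an array of both groups. The replicates are separate pools of females, which the study calls biological replicates.

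Desaturases place double bonds in fatty acids, on which the fluidity of membranes in the cold, stored fat and cuticular hydrocarbons depend. In the fatty acid desaturation list, 4 of 8 genes were called lower and none higher, against 4.59% called lower over all genes. The median log2 difference of the list was -0.65 against 0.14 for all genes. The median stayed negative under every scaling and was 0.12 with the mean of all probes of each gene. The level of desat1, the acyl-CoA desaturase that makes the common monounsaturated fatty acids, was 14.54, 14.47 and 14.85 in 150D females, against 16.10, 16.39 and 16.46 in 50D females. It fell by 1.69 on the log2 scale (standard error 0.31, adjusted p = 0.00172), which is 3.23-fold. For desat2, a desaturase known in D. melanogaster from the synthesis of cuticular hydrocarbons, the level was 13.32, 13.22 and 13.48 in 150D and 14.81, 14.67 and 14.74 in 50D, with a log2 difference of -1.40 (standard error 0.30, adjusted p = 0.00571). The replicates of desat2 lay within 0.13 (SD) in 150D and 0.068 in 50D.

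Cyt-b5-r, a cytochrome b5-related protein with a desaturase-like domain, had levels of 12.66, 13.29 and 12.49 in 150D females and 13.96, 14.01 and 14.09 in 50D females. Its log2 difference was -1.21 (standard error 0.33, adjusted p = 0.0245). CG9743, a predicted stearoyl-CoA desaturase, had 14.87, 14.70 and 15.13 in 150D and 15.92, 16.04 and 15.99 in 50D. Its log2 difference was -1.08 (standard error 0.28, adjusted p = 0.0213). That value rests on a single probe, and the next brightest probes of CG9743 had 0.31, 0.19 and 0.14. The call of Cyt-b5-r did not hold without each of 5 single arrays (all but 150D replicate b), with an adjusted p of up to 0.138, and that of CG9743 without each of 5 (all but 150D replicate c), with up to 0.0949. The other 4 members, among them CG9747 with a log2 difference of 0.56, lay between -0.22 and 0.95 and were not called. Each of the 4 called members had a negative log2 difference under every scaling, but on the 75th percentile scale only desat2 was still called (adjusted p = 0.0283), with 0.054 for desat1, 0.109 for Cyt-b5-r and 0.217 for CG9743.

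**Figure D2:**
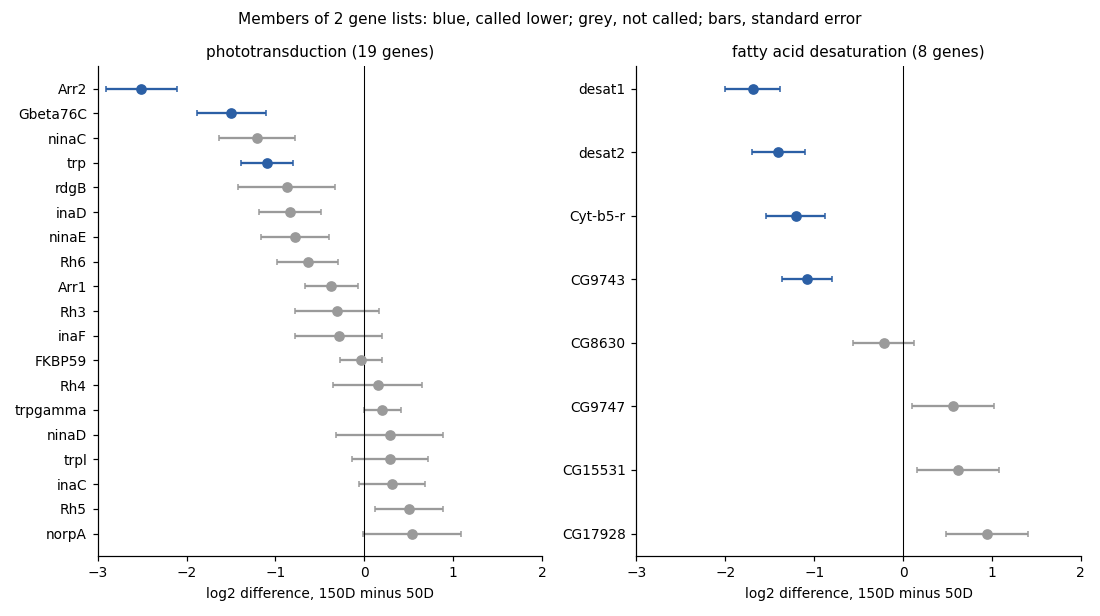
Log2 difference (150D minus 50D) with its standard error for the 19 phototransduction and the 8 desaturation genes, blue where called lower. The called desaturation genes lie between -1.69 and -1.08, and Arr2 lies lowest among the phototransduction genes at -2.51.

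The study lists CG6785 with a stearoyl-CoA desaturase activity. The same column gives the clock gene per a phosphoglycerate mutase activity, so the entry was not relied on. CG6785 belonged to none of the lists used here and was called higher. Its level was 10.42, 10.06 and 11.99 in 150D females, against 8.52, 8.29 and 7.95 in 50D females. The log2 difference was 2.57 (standard error 0.45, adjusted p = 0.00172), a 5.94-fold increase. Replicate c of 150D stood above the other 150D arrays. Without it the log2 difference was 1.99, and with any single array of the 6 left out the adjusted p was at most 0.0138. CG6785 was also the only gene still called higher on the 75th percentile scale and with no normalization (log2 differences of 2.54 and 2.22), while on the spike-in scale it had 1.78 with an adjusted p of 0.0602.

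In the fly eye, light turns rhodopsin into its active form, a G protein passes the signal to phospholipase C, and cation channels of the TRP family open, after which arrestins switch rhodopsin off. Of 19 phototransduction genes, 3 were called lower and none higher, against 4.59% called lower over all genes. Their median log2 difference was -0.31, negative under every scaling too. Negative values were found in 12 of the 19, against 86 of all 218 genes. Arr2, the main arrestin of the photoreceptor, had 8.75, 8.77 and 8.65 in 150D females, against 11.27, 11.20 and 11.23 in 50D females. Its log2 difference was -2.51 (standard error 0.40, adjusted p = 0.00138), a 5.69-fold decrease with the lowest adjusted p of all genes. The replicates agreed within an SD of 0.061 in 150D and 0.031 in 50D. The standard error is larger than these because the fit shares the spread of all 23 arrays.

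Gbeta76C, the beta subunit of the G protein of the eye, had levels of 8.78, 8.75 and 8.42 in 150D and 10.09, 10.39 and 9.96 in 50D, a log2 difference of -1.50 (standard error 0.39, adjusted p = 0.0213). The channel gene trp had 6.25, 5.94 and 6.37 in 150D and 7.33, 7.32 and 7.19 in 50D, a log2 difference of -1.10 (standard error 0.30, adjusted p = 0.0244). Leaving out single arrays took the call of trp each time (adjusted p of 0.0508 to 0.131) and that of Gbeta76C in 5 of 6 cases (all but 150D replicate a; up to 0.0882). The call of trp was also lost on the 75th percentile scale (adjusted p = 0.135) and with no normalization (0.129). The myosin III gene ninaC had -1.21 without passing the test (adjusted p = 0.122). It was called lower when the 6 arrays were fitted alone and with the authors' table of intensities. Other members lay between -0.88 and 0.54.

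None of the 5 opsins, the markers of the photoreceptors themselves, was called, although ninaE and Rh6 were called lower on the spike-in scale and by single probes when every probe was tested. Their log2 differences were between -0.78 and 0.50. Summed over the 5 opsins on the linear scale and taken back to log2, the level was 14.68, 14.71 and 14.41 on the 150D arrays and 15.15, 15.41 and 15.13 on the 50D arrays, so that the groups did not overlap. The part of this in the phototransduction values was not tested. The summed muscle markers (3 genes) were 15.82 to 16.36 in 150D and 15.37 to 15.99 in 50D, and the summed neuron markers (5 genes) 11.57 to 11.70 in 150D and 11.05 to 11.47 in 50D. The neuron sums did not overlap either, with 150D above. Arrays of the groups were apart for 51.4% of all single genes. The summed markers of ovary or maternal RNA (4 genes, none specific to a yolk-bearing ovary) were 13.85 to 14.13 in 150D and 13.68 to 13.91 in 50D. No marker of muscle, neuron or ovary was called. On the spike-in scale the ovary marker Histone_H3.3A was called lower. When every probe was tested, the muscle marker sls (1.36) and the neuron marker Csp each had a called probe.

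Alcohol dehydrogenase, an enzyme of the fat body, and regucalcin, a calcium-binding protein whose D. melanogaster relative Dca is known from cold acclimation, were among the genes that fell furthest. Adh had 6.90, 8.42 and 7.37 in 150D females, against 10.29, 9.89 and 10.23 in 50D females, a log2 difference of -2.57 (standard error 0.47, adjusted p = 0.00172) or 5.95-fold. The 150D replicates of Adh differed more than those of 50D (SD 0.78 and 0.22). Regucalcin had 12.42, 12.07 and 12.05 in 150D and 14.31, 14.07 and 13.99 in 50D, a log2 difference of -1.94 (standard error 0.39, adjusted p = 0.00402). Both kept their call without any single array, with adjusted p of at most 0.0157 for Adh and 0.0228 for regucalcin. No other of the 8 carbohydrate metabolism genes was called, with -0.68 for the glycolytic enzyme Tpi (adjusted p = 0.115) and -0.77 for the trehalase Treh (adjusted p = 0.489). Their median log2 difference was -0.65, and 6 of 8 were negative, against 86 of all 218 genes. With no normalization and on the spike-in scale, Tpi and the glycolytic genes Gapdh1 and Gapdh2 were called lower as well. In the antioxidant and cold response list regucalcin was the only one of 7 called, and the other 6 lay between -0.17 and 0.36.

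Thor encodes 4E-BP, which binds the cap-binding factor of translation and restrains it when insulin and TOR signalling are low. Its level was 14.45, 14.31 and 14.74 in 150D females and 13.25, 13.45 and 13.00 in 50D females, a log2 difference of 1.27 (standard error 0.28, adjusted p = 0.00702) or 2.41-fold. Without 50D replicate c the adjusted p was 0.0524. On the 75th percentile scale its log2 difference was 0.93 (adjusted p = 0.355), and on the spike-in scale 0.17 (adjusted p = 0.829). It was the only one of 14 genes of the insulin pathway and stress kinases to be called, and the others lay between -0.25 and 0.34. None of the 7 genes of the ribosome and translation was called. All 7 values were positive, from 0.026 to 0.60, as were 132 of all 218 genes. Their median was 0.27, but -0.33 on the spike-in scale.

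Heat shock proteins help other proteins to fold and are induced by heat and by recovery from cold, whereas their cognates are made without stress. Of the Hsp70 family, 1 of 7 genes was called higher, against 2.29% of all genes. This gene, Hsc70-2, had 13.14, 12.93 and 13.83 in 150D females against 12.21, 11.84 and 12.09 in 50D females. Its log2 difference was 1.26 (standard error 0.29, adjusted p = 0.00992), and without 50D replicate b or 150D replicate c the call was lost (adjusted p of up to 0.0745). Hsp68, a stress-inducible member, had 13.20, 13.22 and 13.75 in 150D and 12.64, 12.69 and 12.56 in 50D, a log2 difference of 0.76 (standard error 0.23, adjusted p = 0.0411) that turns to -0.093 with no normalization and -0.53 on the spike-in scale. CG7182 had 0.96 (adjusted p = 0.355) and the constitutive Hsc70-4 -0.045 (adjusted p = 0.949).

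The heat shock transcription factor Hsf went down. It had levels of 5.80, 5.09 and 5.58 in 150D females and 6.86, 6.90 and 7.47 in 50D females, a log2 difference of -1.59 (standard error 0.37, adjusted p = 0.0106). Its call was lost without 50D replicate c or 150D replicate b (adjusted p of up to 0.0611). The other 13 of the 14 Hsp90, Hsp60 and co-chaperone genes were not called and lay between -0.60 and 0.63, with 0.34 for Droj2, a DnaJ co-chaperone, and 0.61 for the heat-inducible noncoding RNA Hsr_omega (adjusted p = 0.151). None of 5 small heat shock genes was called, and Hsp26 had 0.77 with a standard error of 0.82.

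Jon25Bi, a serine endopeptidase of the gut, had 14.02, 15.26 and 14.24 in 150D females, against 12.85, 12.49 and 12.98 in 50D females. The log2 difference was 1.73 (standard error 0.46, adjusted p = 0.0228), and it was lost from the calls without any single array other than 150D replicate a, with an adjusted p of up to 0.166. The other measured gut marker, ninaD, a carotenoid receptor, had 0.29 and was not called. The immunoglobulin-superfamily gene tutl, which acts in axon and dendrite patterning, had 7.44, 7.53 and 8.07 in 150D and 6.50, 7.09 and 5.80 in 50D. For tutl the log2 difference was 1.22 (standard error 0.33, adjusted p = 0.0245), and the call was lost without 50D replicate a or c or 150D replicate b or c (adjusted p of up to 0.233). It was the only one of 9 cell surface and matrix genes to be called. The cuticle gene dy in that list had 1.16 (adjusted p = 0.264), and B4, which is in none of the lists, had 1.04 (adjusted p = 0.405). Both dy and B4 were called higher when the 6 arrays were fitted alone and with the authors' table of intensities.

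Among genes of the circadian clock, whose transcription factors and repressors cycle over the day, none of 14 was called. Their median log2 difference was -0.23, and 9 were negative, against 86 of all 218 genes. The repressor partners tim and per had -1.24 (adjusted p = 0.198) and 0.24 (adjusted p = 0.845). Replicates of tim were spread widely (SD 1.04 in 150D and 0.52 in 50D). The courtship transcription factor gene fru had 0.58 (adjusted p = 0.198), and none of 8 genes of sex determination was called. The same was true of 8 genes of cAMP signalling, with -0.072 for the adenylyl cyclase rut. It was also true of 9 potassium and sodium channel genes, with -1.46 for the potassium channel Sh (adjusted p = 0.247). Sh was called lower when the 6 arrays were fitted alone and with the authors' table. The titin relative sls had 0.39 and the lysosomal transporter spin 0.30.

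In the list of eye and optic lobe development, all 8 values were positive (median 0.63, but -0.16 on the spike-in scale) and none was called. Over all 218 genes 132 values were positive. The Pax6 gene ey had 4.55, 4.23 and 4.42 in 150D and 3.24, 3.87 and 3.66 in 50D, with a log2 difference of 0.81 (standard error 0.21, adjusted p = 0.0217) below the minimum fold. The proneural gene ato had 1.24 (adjusted p = 0.614). On 150D arrays its level was 3.62, 5.50 and 6.84, and on 50D arrays 4.90, 2.45 and 4.89, so that the groups overlapped.

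Most genes carried several probes, and each gene was represented by the brightest one over the 23 arrays. For 10 of the 14 called genes with other probes above background on all 6 arrays, every other probe had the same direction. Arr2 had 6 of 6 probes called lower when all 1850 probes were tested, with log2 differences from -2.51 to -1.29, and Gbeta76C 4 of 4, from -2.62 to -1.50. For desat2 5 of 6 probes were called, down to -3.15, so that the brightest probe gave a smaller change than most. For desat1 4 of 8 were called (-1.69 to -1.17) and the other 4 had -0.47 to -0.020. In regucalcin 8 probes lay between -2.13 and -1.85 and the other 8 between -0.82 and 0.35. Where probe names give a strand, these splits followed it, though the strand read is not stated. In desat1 forward probes had -1.48 to -1.17 and probes named rc -0.47 to -0.34. In regucalcin rc probes numbered 1 had -1.94 to -1.85 and forward ones 0.0041 to 0.35. Forward probes numbered 2 had -2.13 to -2.02 and rc ones -0.82 to -0.044. The 8 lower regucalcin probes were the brighter.

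In some genes the probes differed in direction or size. Hsc70-2 had 3 probes called higher (1.15 to 1.69) and 3 called lower (-3.31 to -2.03), and the mean of all its probes was -0.36. CG9743 was called by a single probe at -1.08, and its other 7 lay between -0.60 and 0.34. In tutl 1 of 8 probes was called. CG6785 had no other probe above background on all 6 arrays.

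Ddc, the decarboxylase that makes dopamine and serotonin and supplies cuticle pigment, was not called by its brightest probe, which had 11.14, 11.91 and 11.98 in 150D and 10.53, 10.68 and 10.27 in 50D (log2 difference 1.19, standard error 0.45, adjusted p = 0.184). Of its 6 probes above background on all 6 arrays, 4 were called, with log2 differences of 2.75 to 3.08 and an adjusted p of up to 0.0121 over the 1850 probes. The brightest of them over the 6 arrays had 12.03, 12.68 and 13.42 in 150D females, against 9.34, 10.17 and 9.44 in 50D females. With that probe in place Ddc was called higher. It was also called higher when the 6 arrays were fitted alone, with or without their own normalization, and with the mean of all probes. For the clock repressor vri the brightest probe had -0.85, while one of the others was called at 1.98. That probe had 6.32, 6.06 and 6.18 in 150D and 4.49, 4.17 and 3.97 in 50D. Of the vri probes above background on all 6 arrays, 2 were negative (both -0.85) and 2 positive (1.87 and 1.98). Of the probes above background on all 6 arrays, per had 1 of 12 called higher (1.06) and the other 11 between 0.015 and 0.93, and rut had 1 of 9 called higher (1.27) and the other 8 between -0.41 and 1.88. CG7182 had 2 called higher (1.01 and 1.33) and 14 not called (0.24 to 1.25). Hsr_omega had 1 called higher (1.38) and 5 not called (0.51 to 1.24). For B4 these were 1 (1.26) and 3 (0.86 to 1.28), and for sls 1 (1.36) and 7 (-0.20 to 1.28).

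**Figure D3:**
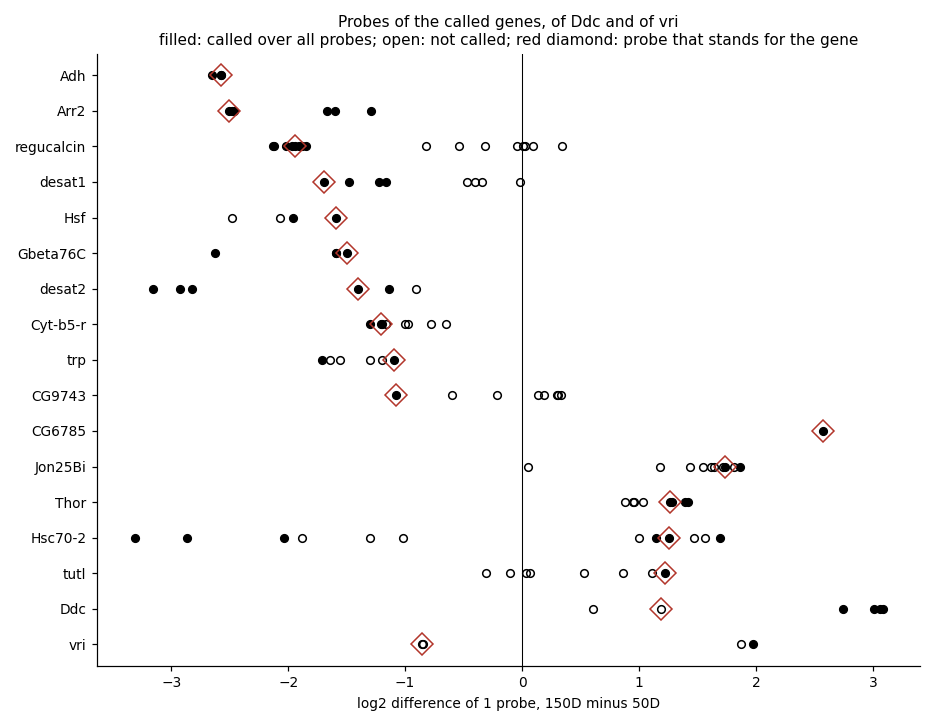
Log2 difference (150D minus 50D) of every probe above background on all 6 arrays for the 15 called genes, Ddc and vri, filled where called over all probes, with a red diamond on the probe that stands for the gene. The Adh probes lie between -2.65 and -2.57, the Hsc70-2 probes fall on both sides of 0, and 4 Ddc probes lie near 3 while its chosen probe lies at 1.19.

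The called genes were then followed over the other ages as levels, since other comparisons of these groups share arrays with this one. For all 10 genes called lower, the 150D mean was the lowest of the 7D, 50D, 150D and 220D means, where 7D is the onset of diapause and 220D is early spring, with ovaries still undeveloped. Their choice for a low 150D level against 50D partly fixes this, and over all genes the 150D mean was lowest in 50 (22.9%). Adh averaged 13.55, 10.13, 7.56 and 10.50 at 7, 50, 150 and 220 days, and desat1 16.47, 16.31, 14.62 and 15.63. Of the 5 genes called higher, CG6785, Thor and Hsc70-2 had their highest mean at 150 days, as did 80 of all genes (36.7%). Thor averaged 12.07, 13.23, 14.50 and 12.98. Jon25Bi was highest at 7 days (16.04) and tutl at 220 days (8.17).

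**Figure D4:**
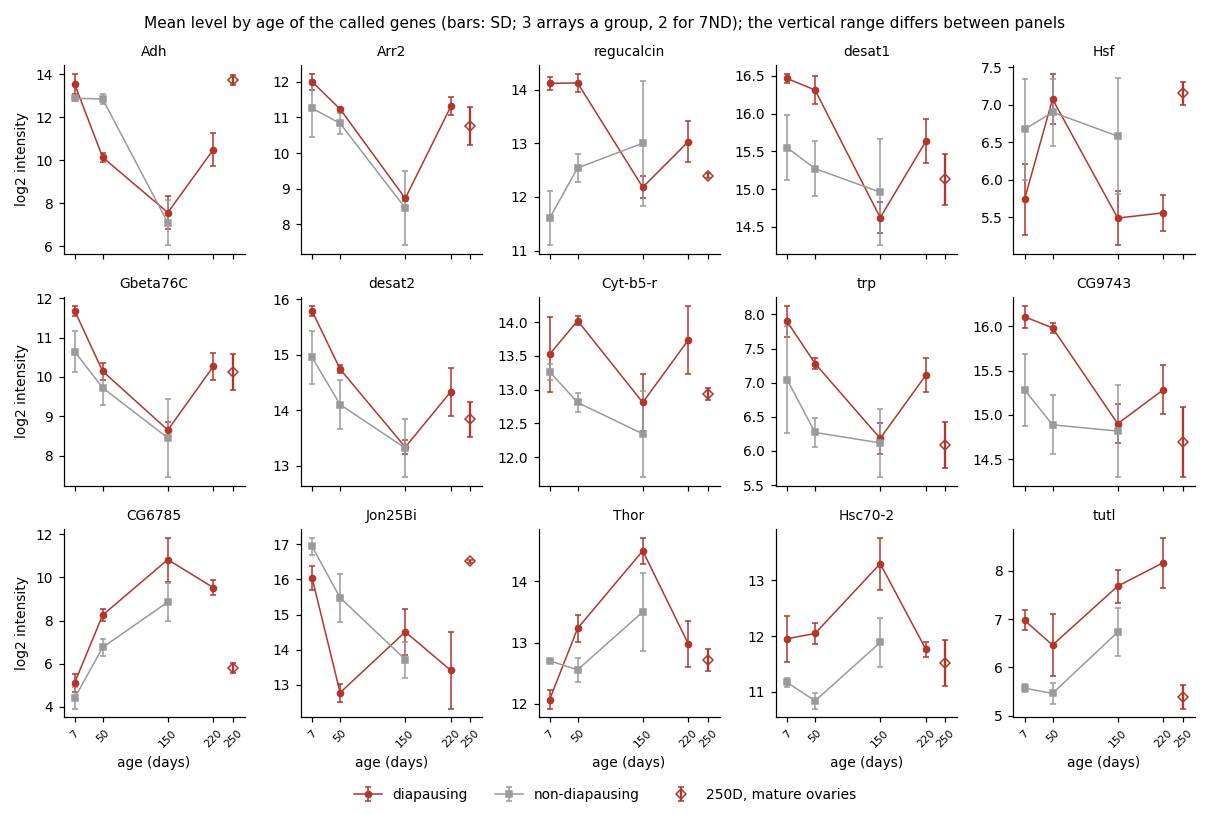
Mean log2 intensity of the called genes against age in days (SD bars), for diapausing females (red circles), non-diapausing females (grey squares) and 250D females, whose ovaries had matured (open diamonds). The 10 genes called lower have their diapause low at 150 days, and Arr2 stands at 8.72 there.

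Non-diapausing females with mature ovaries were measured at 150 days in winter (150ND) and at 50 days in summer (50ND), and the change between them shares no array with the change in diapausing females. These groups also differ in season, light and temperature, and the 50ND females entered the chamber in long days. The change in diapausing females (150D minus 50D) differed from that in non-diapausing females (150ND minus 50ND) for 9 of 218 genes (4.13%) at an adjusted p under 0.05, and for 28 at an unadjusted p under 0.05. Without 150ND replicate c, which an earlier look at these data had found unlike the other 150ND arrays, 10 genes passed, among them all 9. Of the 15 called genes, 3 were among the 9: Jon25Bi, Adh and regucalcin.

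Jon25Bi rose by 1.73 on the log2 scale in diapausing females and fell by 1.76 in non-diapausing females, a difference of 3.50 (95% interval 2.13 to 4.86, adjusted p = 0.00467). It did not pass on the 75th percentile scale or with no normalization. Its levels were 13.32, 13.53 and 14.30 in 150ND and 15.36, 14.86 and 16.22 in 50ND. Adh had a log2 difference of -2.57 in diapausing and -5.77 in non-diapausing females, a difference between them of 3.20 (95% interval 1.81 to 4.58, adjusted p = 0.00612). The level of Adh was 7.10, 6.03 and 8.12 in 150ND, against 12.62, 13.12 and 12.82 in 50ND, so the winter levels of diapausing and non-diapausing females overlapped. Regucalcin had -1.94 in diapausing and 0.46 in non-diapausing females, a difference of -2.40 (95% interval -3.56 to -1.25, adjusted p = 0.00997). This did not pass on the 75th percentile scale, on the spike-in scale or with the mean of all probes. On the 150ND arrays regucalcin had 12.43, 12.23 and 14.34, and without replicate c its change in non-diapausing females was -0.21.

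For the other 12 called genes no difference between the changes passed the test. Arr2 had -2.51 in diapausing and -2.38 in non-diapausing females, with a difference of -0.13 (95% interval -1.32 to 1.06), and Gbeta76C had -1.50 and -1.28 (difference -0.22, -1.36 to 0.92). CG6785 had 2.57 and 2.10, Thor 1.27 and 0.95, Hsc70-2 1.26 and 1.05, and tutl 1.22 and 1.27 in diapausing and non-diapausing females. The intervals of these differences reached from -0.88 to 1.81 for CG6785 and from -0.50 to 1.14 for Thor. Those of desat1, CG9743, Hsf and trp lay below 0 before adjustment. For desat1 the change was -1.69 in diapausing and -0.31 in non-diapausing females (difference -1.38, 95% interval -2.30 to -0.46, adjusted p = 0.0976). This difference passed without 7ND replicate c, without 150ND replicate a, with normexp background correction and with the replicate letter as a block. Without 150ND replicate c the change of desat1 in non-diapausing females was -0.72 and the adjusted p of the difference in limma 0.242.

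**Figure D5:**
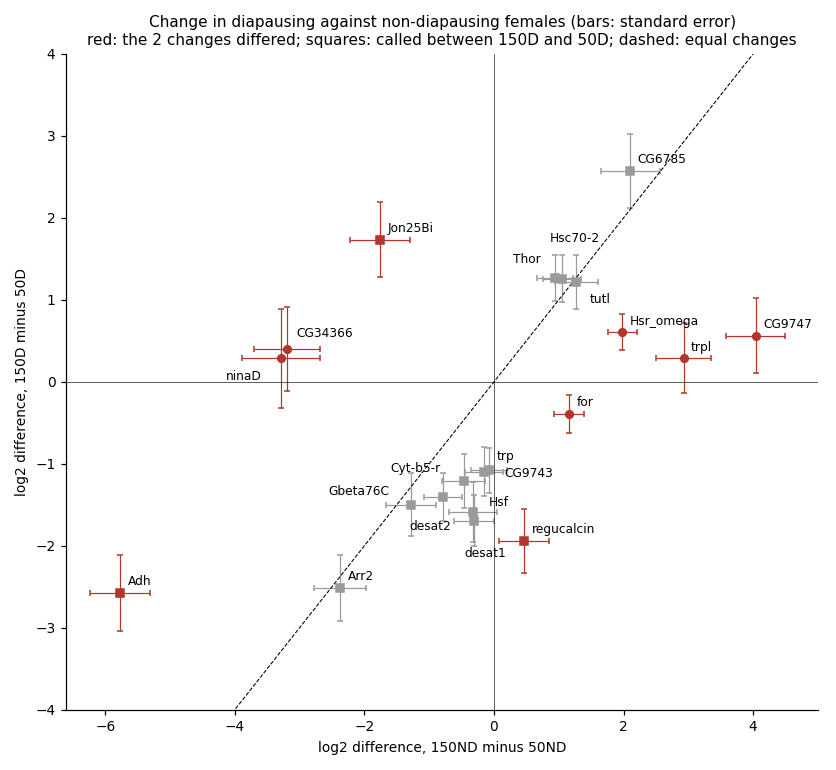
Log2 difference between 150D and 50D (vertical) against that between 150ND and 50ND (horizontal), with standard errors, for the called genes (squares) and the genes whose changes differed (red). Arr2, Gbeta76C, CG6785, Thor, Hsc70-2 and tutl lie near the dashed line of equal changes, and Jon25Bi lies at 1.73 and -1.76.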

How the data were processed

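The authors deposited, per array and spot, the Cy3 intensity after background subtraction by Feature Extraction 10.7.1.1, not normalized between arrays, and a table of intensity per probe that they quantile-normalized with limma. Here the intensity of 14800 gene spots (1850 probes, 8 spots each) was taken to log2 and quantile-normalized over the 23 arrays. Spots flagged as outliers were left out, except in 43 cases where all spots of a probe on an array carried the flag. The brightest probe over the 23 arrays stood for each gene. The probes named Dca stood for regucalcin, and no probe was found for Jon66Cii. Group means were fitted in limma 3.58.1 (R 4.3.3; lmFit, eBayes) with the 23 arrays together, with Benjamini-Hochberg adjustment over 218 genes. A probe was above background on an array where over a share of 0.5 of its spots were. 7ND replicate c, where 98.5% of spots were well above background, enters through the normalization and shared spread. On it 25.4% of spots were flagged as outliers. Its log2 intensities had r = 0.698 with its own column in the authors' table, and that column was closest to another array. Without 7ND replicate c the unadjusted p in limma was under 0.05 for 69 genes, against 32 with it. Groups came from the labels. The number of arrays limits the precision. Genes, 21 lists, tests and alternatives were chosen with earlier results of these data known. The genes named are those called, up to 3 with the largest change in a list, those the study names for this comparison, and those whose changes differed. The procedure was tested on simulated data. Replicate letters and slides were checked for pairing and were not taken to pair samples: the deviations of same-lettered arrays had r of -0.23, -0.33 and 0.13. Probe sequences were not used here.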

Additional observations from a re-analysis of the deposited data

Results flagged for a closer look

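In 9 genes the winter change differed between diapausing and non-diapausing females by the limma test of the difference itself. The difference in log2 change (diapausing minus non-diapausing) was 3.50 for Jon25Bi, 3.20 for Adh and -2.40 for regucalcin, all 3 described in the report. The other 6 were not called between 150D and 50D. CG9747, a predicted desaturase, had 0.56 in diapausing and 4.04 in non-diapausing females, a difference of -3.47 (standard error 0.65, adjusted p = 0.00467). The potassium channel gene CG34366 had 0.40 in diapausing and -3.20 in non-diapausing females, a difference of 3.60 (adjusted p = 0.00612). The gene for (foraging), a cGMP-dependent protein kinase, had -0.39 in diapausing and 1.16 in non-diapausing females, a difference of -1.55 (adjusted p = 0.00612). Hsr_omega, the heat-inducible noncoding RNA, had 0.61 in diapausing and 1.98 in non-diapausing females, a difference of -1.37 (adjusted p = 0.00997). The light-gated channel gene trpl had 0.29 in diapausing and 2.93 in non-diapausing females, a difference of -2.64 (adjusted p = 0.00997). The carotenoid receptor gene ninaD had 0.29 in diapausing and -3.29 in non-diapausing females, a difference of 3.58 (adjusted p = 0.0124). All 9 passed without 150ND replicate c as well. On the 75th percentile scale Hsr_omega, Jon25Bi and regucalcin did not pass, with no normalization Jon25Bi, and on the spike-in scale Hsr_omega, for and regucalcin. With normexp background correction ninaD did not pass, nor did it without 50D replicate c, and with the mean of all probes CG34366, Hsr_omega, for, ninaD and regucalcin did not.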

How the results depend on the processing

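Against 5 genes called higher and 10 called lower, 75th percentile scaling gave 1 and 6, no normalization 1 and 16, spike-in scaling 0 and 29, the mean of all probes 3 and 5, and every probe tested on its own 21 and 24 genes with a called probe. The 6 arrays fitted alone gave 8 and 13, and normalized and fitted alone 8 and 14. Leaving out 1 of the 6 arrays gave 2 to 5 higher and 5 to 7 lower, all among the 15. Arr2, CG6785, Adh, desat1, regucalcin and desat2 kept their call each time. All 15 stayed called with the slide as a block, with the authors' table (7 higher, 13 lower) and without 7ND replicate c (7 and 13). In the last 2 settings, and with the 6 arrays fitted alone, dy and B4 were called higher too, and ninaC and Sh lower. Ddc was called higher with the 6 arrays fitted alone and with the mean of all probes. The letters do not pair the arrays. With the replicate block 5 genes were higher and 11 lower, all 15 with ninaC added, and 11 genes differed between the winter changes. Those 9 became 8 with 75th percentile scaling, 8 with no normalization, 6 with spike-in scaling, 18 with the authors' table, 5 with the mean of all probes and 19 without 7ND replicate c, against 8 to 11 with 1 array left out. Log2 differences turned with 75th percentile scaling for Droj2 (-0.12). With no normalization they turned for Hsp68 (-0.093), Hsr_omega (-0.26), per (-0.079), Droj2 (-0.44) and spin (-0.29). On the spike-in scale they turned for Hsc70-2 (-0.019), CG7182 (-0.11), Hsp68 (-0.53), Hsr_omega (-0.70), fru (-0.29), Hsp26 (-0.30), per (-0.52), Droj2 (-0.88), spin (-0.73) and sls (-0.43). With the mean of all probes, which mixes the named strands, Hsc70-2 had -0.36, vri 0.95, Hsc70-4 0.093 and rut 0.41. With forward probes vri had 1.98, and trp had 0.98 from a probe above background on 1 of the 6 arrays (150D replicate b). With 1 array left out Hsc70-4 had -0.13 to 0.0085, rut -0.14 to 0.014 and sls -0.11 to 0.88. The cause was not tested. Of the named genes' other values, 639 kept their side of the threshold, 64 no longer passed it and 27 passed it newly. With 3 arrays a group and 7ND replicate c in the fit, a change near the 2-fold minimum was at the limit of what could be called. That limit depended on the fit as well as on the group size. With the same 3 arrays a group, the unadjusted p in limma was under 0.05 for 32 genes in that fit. It was under 0.05 for 69 genes without 7ND replicate c and for 94 with the 6 arrays fitted alone. The part of the shared spread in the calls lost with 1 array left out was not tested.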
